A study of Mus musculus with 12 samples.

Results

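The genes described here are 10 regulators of the two-cell-like state of mouse embryonic stem cells. Trim28, Setdb1, Kdm1a, Chaf1a, Chaf1b, Rif1, Ehmt2 and Pcgf6 are known as repressors of that state, and Dppa2 and Dppa4 as activators. They were chosen by name for these roles, with earlier results of these data known. They are 10 of the 22753 genes in the count table, and all 10 were among the 15179 genes with enough counts to be tested.

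Cultures of mouse embryonic stem cells hold a rare and transient population that transcribes genes of the early embryo, such as the Zscan4 and Usp17l families, together with endogenous retroviruses of the MERVL family. The repressors keep that chromatin closed. TRIM28 (KAP1) is brought to DNA by KRAB zinc finger proteins and recruits the histone methyltransferase SETDB1, KDM1A (LSD1) removes methyl groups from histone H3, the CAF-1 complex loads histones behind the replication fork, RIF1 controls the timing of replication, EHMT2 (G9a) methylates histone H3, and PCGF6 defines a variant Polycomb complex. DPPA2 and DPPA4 form a pair of related DNA-binding proteins that open the promoters of early embryonic genes.

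The groups were the Cre-GFP-positive cells of clone 10 and of clone 4, labelled Sphk1-/- Sphk2-/-, each compared with the GFP-negative cells of the same clone, labelled Sphk1fl/fl Sphk2-/-, with 3 libraries in each of the 4 groups. All groups thus carry the Sphk2-/- label, and all were grown with LIF and serum and took the active tamoxifen metabolite 4-hydroxytamoxifen at 6 uM for 48 h before the sort. Sphk1 and Sphk2 encode the kinases that make sphingosine 1-phosphate. Each clone is a single derived line. The promoter that drives the Cre-GFP is not named in the labels. GFP-positive cells differ from GFP-negative cells both in Cre-GFP and in the labelled loss of Sphk1, so these cannot be told apart. The passage labels run over 11 to 20 in clone 10 and 11 to 16 in clone 4. They mostly rise by 1 from sample to sample in the order of the records, so they may not be true passages. As labelled they rise with the replicate number, are 1 higher in the GFP-positive library of 5 of 6 pairs and are highest in clone 10, so passage cannot be told apart from these. The labels do not say whether replicates were separate cultures or sorts, so p-values measure only the spread between these libraries, which may be technical.

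Total counts ranged from 12968916 to 34258395 a library, with the fewest in clone 10 GFP-negative replicate 1. Mitochondrial genes took 0.143% of its counts, against 0.594% to 2.32% in the other libraries. Levels are given in CPM, in which each count is divided by its library's total and put on a common scale. The fit scales the libraries further by TMM factors, and where that moves an overlap or a count of pairs, both are given. Sphk1 spanned 0.889 to 3.01 CPM in GFP-positive and 0.694 to 4.30 CPM in GFP-negative cells of clone 10, and 0.701 to 2.02 CPM in GFP-positive and 1.78 to 3.02 CPM in GFP-negative cells of clone 4. These whole-gene totals overlapped between the gates in both clones. Sphk2 was not at 0 in any library, with 5.44 to 8.13 CPM in GFP-positive and 3.16 to 8.34 CPM in GFP-negative cells of clone 10, and 1.89 to 7.41 CPM in GFP-positive and 1.19 to 6.11 CPM in GFP-negative cells of clone 4. Totals of both genes can hold reads from exons outside the deleted part, so they do not check the genotype labels, and the groups are called here by their gate. The transcripts of the two-cell-like state differed widely. Their summed level over 25 genes was 1210 to 6346 CPM in GFP-positive and 134 to 327 CPM in GFP-negative cells of clone 10, and 38.5 to 439 CPM in GFP-positive and 7.55 to 31.3 CPM in GFP-negative cells of clone 4. In bulk RNA, fewer cells of a type and less RNA per cell cannot be told apart.

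The question put to the 10 genes was whether their own transcripts differed between the gates. GFP-positive and GFP-negative libraries were compared with edgeR's quasi-likelihood test in 2 ways: a fit over all 12 libraries with a term per group, and a fit within the 6 pairs that share a clone and a replicate number. A gene was called at a Benjamini-Hochberg adjusted p under 0.05 over all genes tested. Over all libraries, edgeR called 0 of the 10 genes in clone 10, where it called 0% of all genes, 0 of 10 in clone 4, also against 0%, and 0 of 10 in the mean of both clones, against 0.158%. At an unadjusted p under 0.05 stood 2 of the 10 in clone 10 (Chaf1b and Ehmt2), beside 7.45% of all genes, 0 in clone 4, beside 1.38%, and the same 2 over both clones, beside 6.77%. Within pairs, where the biological coefficient of variation was 0.175 in place of 0.389, edgeR again called 0 of 10 in clone 10 against 4.22% of all genes, 0 of 10 in clone 4 against 0.119%, and 0 of 10 in the mean of both clones against 3.36%. There, an unadjusted p under 0.05 was reached by 3 of the 10 in clone 10 (Chaf1b, Ehmt2 and Dppa2), beside 25.2% of all genes, by 2 in clone 4 (Chaf1a and Rif1; 0 without its replicate 1 or its replicate 3 pair), beside 7.42%, and by 4 over both clones (Chaf1b, Ehmt2, Dppa2 and Rif1), beside 26.3%.

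For the 10 genes, other tools made calls only with the pairs. Over all libraries, DESeq2 called 0 of 10 in clone 10, clone 4 and the mean of both clones, against 1.9%, 0.217% and 1.88% of all genes, and limma-voom 0 of 10 against 0.29%, 0% and 0.00659%. With the pairs, DESeq2 called 3 of 10 in clone 10 against 10.4% of all genes, 0 in clone 4 against 1.2% and 3 over both clones against 9.45%. Limma-voom with the pairs called 1 of 10 in clone 10 against 5.37%, 0 in clone 4 against 0.0461% and 0 over both clones against 4.47%. The fitted changes of the 10 genes within pairs spanned -0.36 to 0.56 on the log2 scale in the mean of both clones. Their median was -0.052, against 0.0031 for all genes tested.

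**Figure D1:**
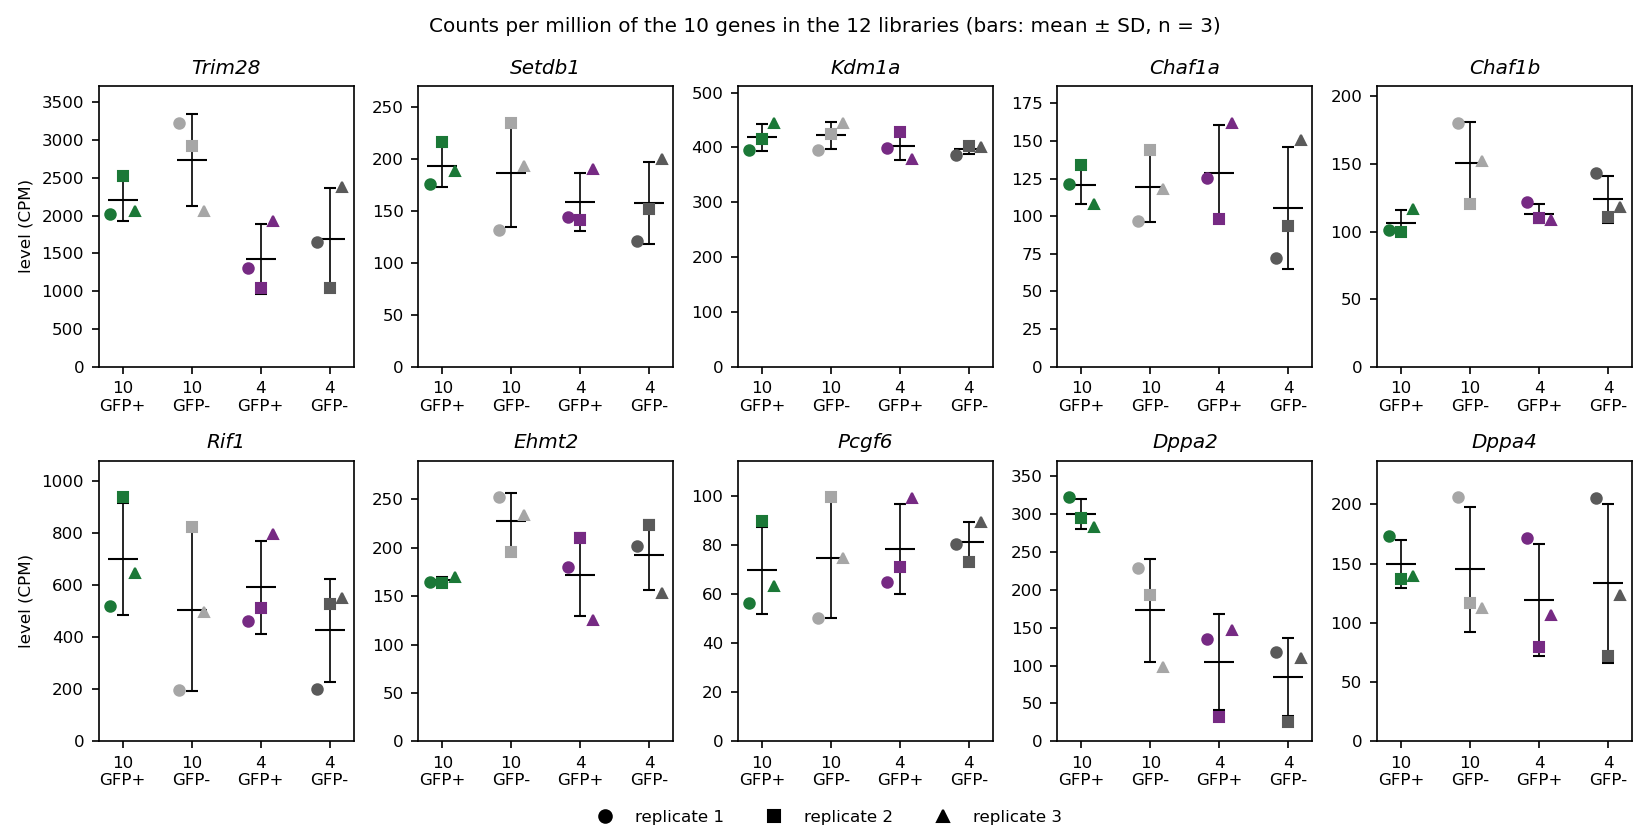
Level of each of the 10 genes in CPM (vertical axes, each from 0) in the 12 libraries, by clone and gate. Symbols mark the replicate number, and the horizontal tick and bar give the mean and SD of the 3 libraries of a group. Dppa2 is higher, and Chaf1b and Ehmt2 lower, in every GFP-positive library of clone 10 than in every GFP-negative one, while Kdm1a keeps to a range of 379 to 445 CPM. With the scaling factors of the fit, Dppa2 overlaps between the gates of clone 10.

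Trim28 (ENSMUSG00000005566, mm10 chromosome 7, 13024152 to 13031035) is the scaffold that KRAB zinc finger proteins recruit. It was the most abundant of the 10 genes by counts per kilobase of exon, with a median of 491 CPM per kb over the 12 libraries. In clone 10 it had 2027, 2528 and 2058 CPM in GFP-positive replicates 1 to 3, against 3232, 2917 and 2065 CPM in GFP-negative replicates 1 to 3. Clone 4 gave 1305, 1037 and 1935 CPM in GFP-positive replicates, against 1648, 1041 and 2385 CPM in GFP-negative replicates. The GFP-positive library was the lower in all 6 pairs by these levels, in 2 of them by less than 1% (ratios of 0.996 in both), and in 5 of 6 pairs with the scaling factors, and the gates overlapped in each clone. Its log2 change over all libraries was -0.45 in clone 10 (SE 0.38), -0.22 in clone 4 (SE 0.38) and -0.34 over both (SE 0.27). Within pairs the change over both clones was -0.31 (SE 0.13, edgeR adjusted p = 0.190), so a lower level did not pass the test. Without the replicate 1 pair of clone 10 it was -0.17 (SE 0.087, edgeR adjusted p = 0.272).

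Setdb1 (chromosome 3, 95323525 to 95357202), the methyltransferase that TRIM28 recruits, stood at 175, 216 and 188 CPM in GFP-positive and 131, 235 and 193 CPM in GFP-negative cells of clone 10. Its levels in clone 4 were 144, 141 and 190.4 CPM in GFP-positive and 121, 151 and 199 CPM in GFP-negative cells. Both pairs numbered 1 were higher in GFP-positive cells and the other 4 pairs lower, while with the scaling factors 3 pairs were higher and 3 lower. The change over both clones within pairs had a 95% confidence interval of -0.18 to 0.19 on the log2 scale, or 0.883-fold to 1.14-fold. This interval and that of Kdm1a were the narrowest of the 10 genes.

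Kdm1a (chromosome 4, 136550540 to 136602723), the histone demethylase LSD1, varied least of the 10. It had 396, 414 and 445 CPM in GFP-positive and 395, 425 and 445 CPM in GFP-negative cells of clone 10, and 399, 429 and 379 CPM in GFP-positive and 386, 403 and 402 CPM in GFP-negative cells of clone 4. The GFP-positive library was the higher in 3 and the lower in 3 of the 6 pairs, or higher in 2 and lower in 4 with the scaling factors. The highest library was 1.17-fold the lowest in CPM, and 1.28-fold with the scaling factors. The SD of its log2 CPM within groups was 0.077, against a median of 0.48 over all genes tested, which placed it at percentile 0.119 of them. With the scaling factors it was 0.067, against a median of 0.46. Over both clones the log2 change within pairs was -0.049 (95% confidence interval -0.23 to 0.14), a ratio of 0.851-fold to 1.10-fold.

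Chaf1b (ENSMUSG00000022945, chromosome 16, 93883901 to 93906115), the middle subunit of CAF-1, was lower in GFP-positive cells of clone 10 in every library. It had 101, 99.8 and 117 CPM in GFP-positive replicates 1 to 3, against 181, 120.1 and 153 CPM in GFP-negative replicates 1 to 3. The same libraries of clone 4 had 122, 109.8 and 109 CPM in GFP-positive replicates, against 144, 111 and 118 CPM in GFP-negative replicates. The gates did not overlap in clone 10, overlapped in clone 4, and the GFP-positive library was the lower in 6 of 6 pairs, or in 5 of 6 with the scaling factors. In clone 10 the log2 change was -0.65 (SE 0.22, edgeR adjusted p = 0.426) over all libraries and -0.61 (SE 0.17, edgeR adjusted p = 0.0828) within pairs. It missed the threshold in both fits, while DESeq2 with the pairs called it (-0.62, adjusted p = 0.0206). Without the replicate 1 pair of clone 10, which holds the shallowest library, the change within pairs was -0.36 (SE 0.12, edgeR adjusted p = 0.139).

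Chaf1a (chromosome 17, 56040416 to 56068026), the large CAF-1 subunit, overlapped between the gates in both clones. It had 121, 134 and 108 CPM in GFP-positive and 96.8, 144 and 118 CPM in GFP-negative cells of clone 10. Clone 4 had 125, 97.8 and 162 CPM in GFP-positive and 72.0, 93.3 and 151 CPM in GFP-negative cells, so the GFP-positive library was the higher in each of its 3 pairs. Within pairs the log2 change was -0.087 (SE 0.14) in clone 10 and 0.34 (SE 0.14, edgeR adjusted p = 0.660) in clone 4, or 0.14 (SE 0.13) without the replicate 1 pair of clone 4. By the GENCODE M21 annotation, 52.5% of its exonic length (4648 bases) is shared with Ubxn6 on the opposite strand. No source used here gives the strand setting of the counting, so whether reads there were counted, and for which gene, is not known. Ubxn6 stood at 60.7 to 70.0 CPM in GFP-positive and 57.8 to 86.5 CPM in GFP-negative cells of clone 10, and at 43.7 to 57.2 CPM in GFP-positive and 47.4 to 61.5 CPM in GFP-negative cells of clone 4. Of the 20 genes of a list for entry into S phase, the phase in which CAF-1 acts, edgeR called 0 in either clone or fit, and their median change within pairs was -0.25 in clone 10 and 0.0049 in clone 4. At an unadjusted p under 0.05 within pairs stood 7 of the 20 in clone 10, beside 25.2% of all genes, and 0 in clone 4, beside 7.42%.

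Rif1 (ENSMUSG00000036202, chromosome 2, 52072837 to 52122383), the replication timing factor, stood higher in GFP-positive cells in 5 of 6 pairs. It had 517, 936 and 646 CPM in GFP-positive replicates of clone 10, against 197, 821 and 495 CPM in GFP-negative replicates. In clone 4, Rif1 had 463, 513 and 794 CPM in GFP-positive replicates, against 199, 528 and 549 CPM in GFP-negative replicates. Both GFP-negative libraries numbered 1 were the lowest of all 12. The pairs that hold them had the largest ratios of unscaled CPM, 2.62 in clone 10 and 2.33 in clone 4. The log2 change over both clones was 0.46 (SE 0.35) over all libraries and 0.56 (SE 0.17, edgeR adjusted p = 0.110) within pairs. Only DESeq2 with the pairs, of the tests run, called it (0.56, adjusted p = 0.0211).

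Ehmt2 (ENSMUSG00000013787, chromosome 17, 34898469 to 34914052), the methyltransferase G9a, was lower in GFP-positive cells in 6 of 6 pairs. In clone 10 it had 165, 164 and 170.1 CPM in GFP-positive replicates 1 to 3, against 252, 195 and 234 CPM in GFP-negative replicates 1 to 3. In clone 4, Ehmt2 had 179.9, 210.4 and 126 CPM in GFP-positive replicates, against 202, 223 and 153 CPM in GFP-negative replicates. The 3 GFP-positive libraries of clone 10 lay below all 3 GFP-negative ones, whereas the gates overlapped in clone 4. The log2 change in clone 10 was -0.58 (SE 0.22, edgeR adjusted p = 0.551) over all libraries and -0.56 (SE 0.14, edgeR adjusted p = 0.0589) within pairs. Over both clones it was -0.36 within pairs (SE 0.10, edgeR adjusted p = 0.0828), a ratio of 0.778-fold with an interval of 0.668-fold to 0.906-fold. With the pairs, DESeq2 called it in clone 10 (-0.57, adjusted p = 0.00794) and over both clones (-0.37, adjusted p = 0.0219), and limma-voom in clone 10 (-0.56, adjusted p = 0.0455).

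Pcgf6 (chromosome 19, 47033619 to 47050845), the subunit that defines the variant Polycomb complex PRC1.6, had 56.4, 89.9 and 63.3 CPM in GFP-positive and 50.4, 99.6 and 74.7 CPM in GFP-negative cells of clone 10. Clone 4 had 65.1, 71.3 and 99.4 CPM in GFP-positive and 80.7, 73.1 and 89.7 CPM in GFP-negative cells. It was higher in 2 and lower in 4 of the 6 pairs, or higher in 1 and lower in 5 with the scaling factors. Its log2 change over both clones within pairs was -0.12 (SE 0.10), with an interval of -0.34 to 0.10.

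Dppa2 (ENSMUSG00000072419, chromosome 16, 48310477 to 48319723) was the single gene of the 10 that stood higher in GFP-positive cells in 6 of 6 pairs. In clone 10 it had 322, 294 and 282 CPM in GFP-positive replicates 1 to 3, against 228, 192 and 97.5 CPM in GFP-negative replicates 1 to 3. In clone 4, Dppa2 had 135, 32.4 and 146 CPM in GFP-positive replicates, against 118, 25.4 and 110.2 CPM in GFP-negative replicates. By CPM the gates did not overlap in clone 10, but with the scaling factors GFP-positive replicate 3 lay just below GFP-negative replicate 1. They overlapped in clone 4, where both libraries numbered 2 stood far below the rest. The ratio of unscaled CPM within pairs was 1.41, 1.53 and 2.90 in clone 10 and 1.14, 1.28 and 1.33 in clone 4. The log2 change was 0.63 (SE 0.62, edgeR adjusted p = 0.847) in clone 10 over all libraries and 0.76 (SE 0.22, edgeR adjusted p = 0.0933) within pairs, and over both clones it was 0.55 within pairs (SE 0.16, edgeR adjusted p = 0.0974), a ratio of 1.46-fold with an interval of 1.14-fold to 1.87-fold. With the pairs, DESeq2 called it in clone 10 (0.75, adjusted p = 0.0228) and over both clones (0.54, adjusted p = 0.0216). Without the replicate 1 pair of clone 10, edgeR called it within pairs in clone 10 (1.04, SE 0.19, adjusted p = 0.0178), where it called 4.26% of all genes, and over both clones (0.69, SE 0.12, adjusted p = 0.0112), where it called 6.36%. Without the replicate 3 pair of clone 10 the change was 0.39 in that clone and 0.36 over both, and was not called.

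Dppa4 (ENSMUSG00000058550, chromosome 16, 48283735 to 48294292) lies next to Dppa2 on the same strand and encodes its partner. It had 173, 137 and 139 CPM in GFP-positive and 206, 117 and 112 CPM in GFP-negative cells of clone 10, and 172, 79.8 and 107 CPM in GFP-positive and 205, 72.4 and 123 CPM in GFP-negative cells of clone 4. The gates overlapped in both clones, and the GFP-positive library was the higher in 3 and the lower in 3 of the 6 pairs, with a log2 change over both clones within pairs of -0.056 (95% confidence interval -0.34 to 0.23). The difference between the changes of Dppa2 and Dppa4 was not tested.

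**Figure D2:**
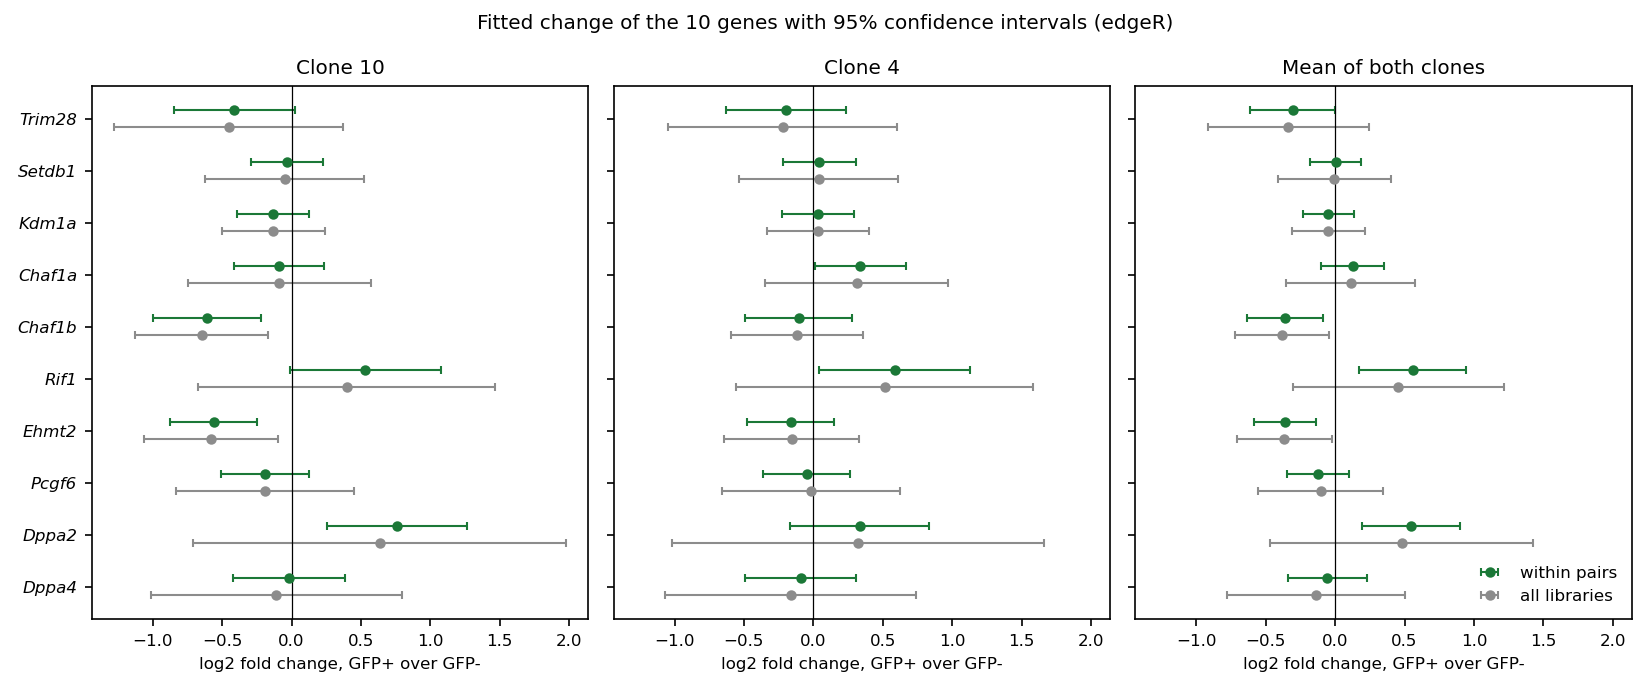
Log2 fold change of GFP-positive over GFP-negative cells (horizontal axes) for the 10 genes in clone 10, clone 4 and the mean of both clones. Points are edgeR estimates within pairs and over all libraries, and bars their 95% confidence intervals. The intervals within pairs lie below 0 for Chaf1b and Ehmt2 and above 0 for Dppa2 in clone 10, before any adjustment over the genes tested, and those over all libraries are wider.

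By the levels alone, the gates of clone 10 were separate for 3 of the 10 genes, Dppa2 higher and Chaf1b and Ehmt2 lower, where 14.5% of all genes tested did not overlap. With the scaling factors the 2 lower genes stayed separate and Dppa2 overlapped, against 15% of all genes. In clone 4 the count was 0 of 10 on both scales, where 3.65% of all genes tested did not overlap, or 3.75% with the scaling factors. The direction was the same in all 6 pairs for 4 of the 10 genes, Dppa2 higher and Trim28, Chaf1b and Ehmt2 lower, against 15.1% of all genes tested. With the scaling factors 2 of 10 did so, Dppa2 higher and Ehmt2 lower, against 16% of all genes, since Trim28 and Chaf1b were then not lower in the replicate 2 pair of clone 4. The changes of clone 10 were not shown to differ from those of clone 4. The test of that difference called 0 of the 10 genes in either fit, against 0% of all genes in both, and 0 of the 10 had an unadjusted p under 0.05. DESeq2 called 0 of 10 over all libraries against 0% and 0 of 10 with the pairs against 0.422%, and limma-voom 0 of 10 against 0% in both. Within pairs the difference, clone 10 minus clone 4, was 0.43 (SE 0.31) for Dppa2, -0.50 (SE 0.24) for Chaf1b and -0.40 (SE 0.19) for Ehmt2.

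The ratios of the regulators can be set beside those of the two-cell-like transcripts in the same pairs. The summed level of those 25 genes in the GFP-positive library was 19.4, 8.64 and 30.8 times that in the GFP-negative library of the 3 pairs of clone 10, and 14.0, 7.52 and 3.41 times in clone 4. The CPM ratios of the 10 regulators all lay between 0.561 (Chaf1b, replicate 1 of clone 10) and 2.90 (Dppa2, replicate 3 of clone 10). With the scaling factors, the log2 ratio of Chaf1b in replicate 1 of clone 10 was -1.13, which is a lower ratio than 0.561. The lower bound thus holds for unscaled CPM alone. For Chaf1b and Ehmt2, the farthest ratio from 1 fell in replicate 1 of clone 10. Of the 24 two-cell-like genes tested, edgeR called 23 higher in clone 10 within pairs, where it called 4.22% of all genes. Within pairs it called 4 higher in clone 4 against 0.119%, and 21 over both clones against 3.36%. Over all libraries it called 6 higher over both clones against 0.158%. In each of these 0 were called lower. Tdpoz4, among the 23 called in clone 10, passed the count filter only through the GFP-positive cells of that clone. Its call is thus no separate evidence of a rise. The two-cell-like list was chosen with earlier results of these data known, so the counts are no independent support for a gain. Leaving out single pairs moved the count of clone 4 over 0 to 12, with 0 called when any of clone 4's own pairs was left out. Reads of such families of near-identical genes can be split between copies, so single members are uncertain.

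**Figure D3:**
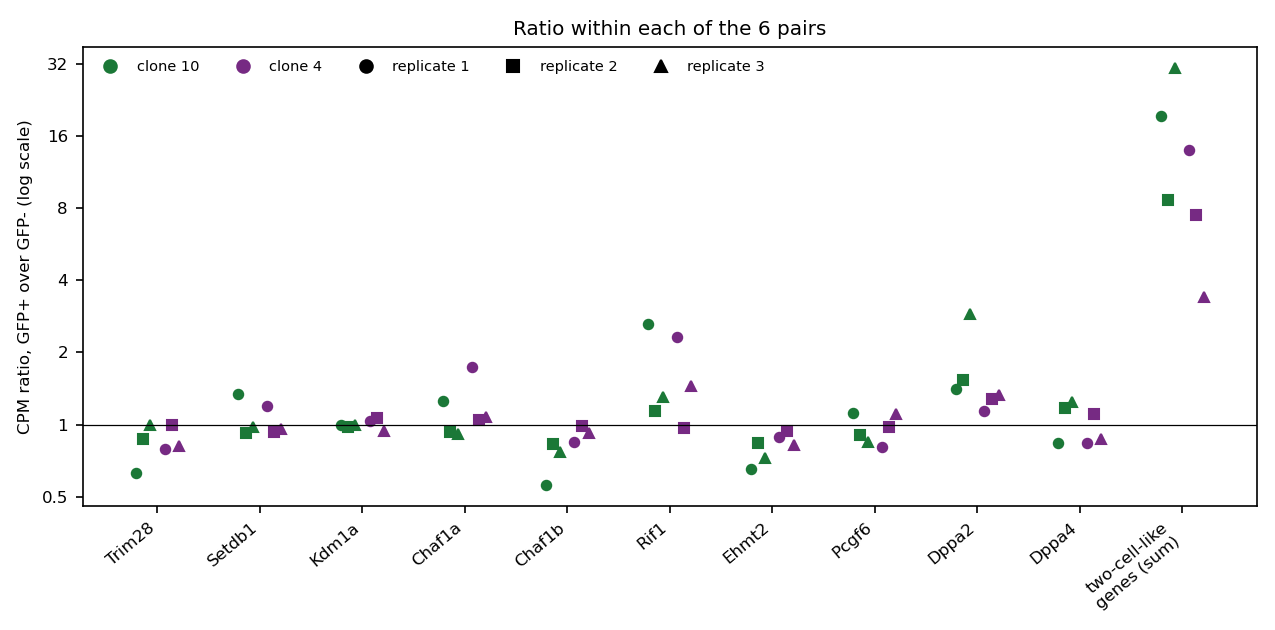
Ratio of CPM in the GFP-positive over the GFP-negative library of each of the 6 pairs (vertical axis, log scale) for the 10 regulators and for the summed CPM of 25 two-cell-like genes. Colours mark the clone and symbols the replicate number. The summed two-cell-like genes lie at 3.41 to 30.8, and the regulators between 0.561 and 2.90.

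The same genes were compared between the clones within each gate. Dppa2 averaged 299 ± 20.1 CPM in GFP-positive cells of clone 10 and 105 ± 62.8 CPM in those of clone 4 (SD, n = 3 each), with no overlap. In GFP-negative cells it averaged 173 ± 67.5 CPM in clone 10 and 84.6 ± 51.5 CPM in clone 4, with overlap. Its log2 difference, clone 10 over clone 4, was 1.53 (SE 0.63, edgeR adjusted p = 0.284) in GFP-positive and 1.22 (SE 0.62, edgeR adjusted p = 0.470) in GFP-negative cells. Trim28 averaged 2204 ± 281 CPM in GFP-positive cells of clone 10 and 1425 ± 461 CPM in those of clone 4, with no overlap by CPM and with overlap after scaling, and 2738 ± 604 CPM in clone 10 and 1692 ± 673 CPM in clone 4 in GFP-negative cells. Its log2 difference was 0.65 (SE 0.38, edgeR adjusted p = 0.484) in GFP-positive and 0.88 (SE 0.38, edgeR adjusted p = 0.394) in GFP-negative cells. By CPM these 2 of 10 did not overlap between the clones in GFP-positive cells, where 24.4% of all genes did not overlap, and 0 of 10 in GFP-negative cells, where 15% did not. With the scaling factors it was 1 of 10 in GFP-positive cells (Dppa2), against 24.8%, and 2 of 10 in GFP-negative cells (Kdm1a and Ehmt2, higher in clone 10), against 13.8%. By edgeR, 0 of 10 were called in GFP-positive cells, against 1.11% of all genes, and 0 of 10 in GFP-negative cells, against 0.0461%, with 1 of the 10 at an unadjusted p under 0.05 in each (Dppa2 and Trim28). DESeq2 called 0 of 10 in GFP-positive cells against 5.86% and 0 of 10 in GFP-negative cells against 2.75%, and limma-voom 0 of 10 against 2.79% and 0 of 10 against 0.0725%.

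Per kilobase of exon, the median levels over the 12 libraries were 491 CPM per kb for Trim28, then 78.4 for Dppa4, 77.7 for Kdm1a, 57.5 for Dppa2, 49.8 for Rif1, 34.2 for Ehmt2, 26.5 for Setdb1, 25.1 for Chaf1b, 14.7 for Pcgf6 and 13.5 for Chaf1a. The exonic length of Chaf1a includes the 52.5% shared with Ubxn6. Whether reads there were counted for it is not known, so its place in this order is uncertain. Trim28 stood apart from all the others in each library, at 249 CPM per kb or more against at most 131 for any other. Of the other neighbours in that order, Chaf1b (21.3 or more) and Pcgf6 (at most 19.8) did not overlap over the libraries by CPM and the rest did. The spread over libraries also differed between the genes. The highest library was 12.7-fold above the lowest for Dppa2, 4.74-fold for Rif1 and 3.12-fold for Trim28, against 1.17-fold for Kdm1a. The SD of log2 CPM within groups was 0.94 for Dppa2, at percentile 84.0 of the genes tested. Even so, each of the 10 genes had at least 487 counts in every library.

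Some of the 10 genes varied together from library to library. As a description over the 12 libraries, which share clones and replicate numbers, scaled log2 CPM of Dppa2 correlated with that of Dppa4 at 0.776 and with that of Trim28 at 0.795, and that of Setdb1 with Chaf1a at 0.838 and with Rif1 at 0.785. After the group means were taken out, Setdb1 correlated with Chaf1a at 0.909, with Rif1 at 0.906 and with Ehmt2 at -0.801, and Trim28 with Dppa2 at 0.852. Libraries with more Setdb1 than their group thus tended to have more Chaf1a and Rif1 and less Ehmt2. Same-numbered libraries deviate alike over all genes tested, so such values need not be particular to these genes. How they compare with other gene pairs was not tested. The genes most like Dppa2 over the 12 libraries were Taf7 (0.978), Zfp119a (0.976) and Zfp472 (0.974). Those most like Trim28 were Bop1 (0.992), Trmt61a (0.986) and Fiz1 (0.985). Both libraries numbered 2 of clone 4 had the lowest Dppa2 and the lowest Dppa4 of all 12.

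**Figure D4:**
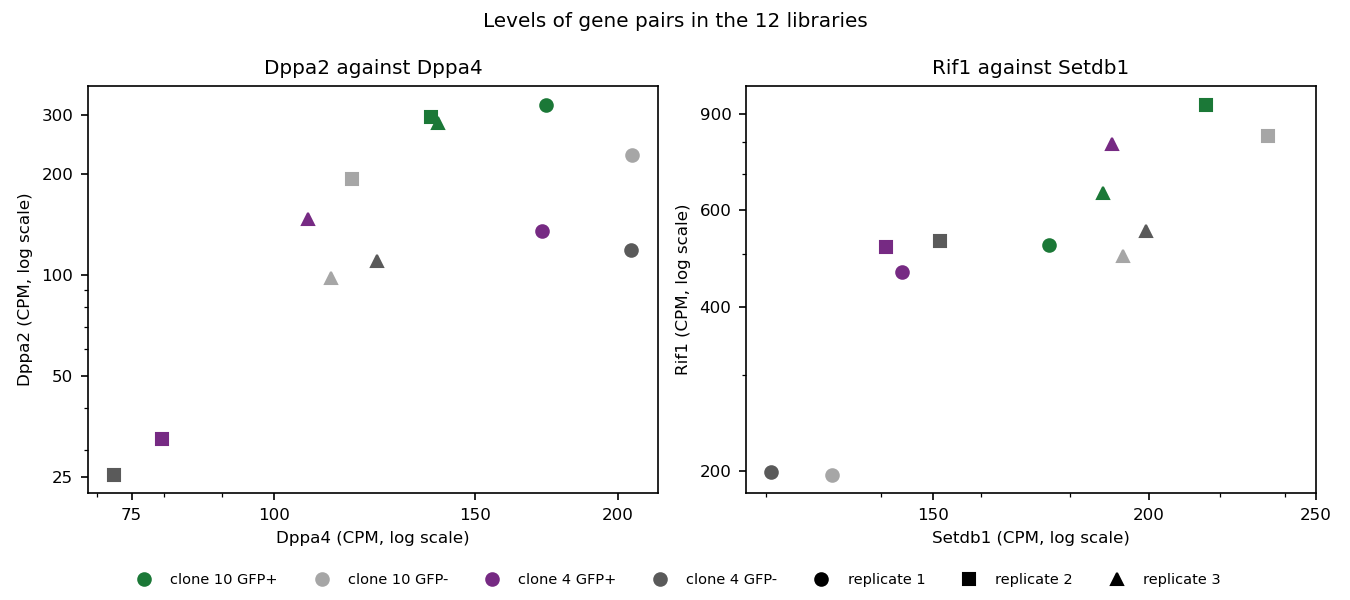
Levels of Dppa2 against Dppa4 and of Rif1 against Setdb1 in the 12 libraries (CPM, log scales). Colours mark clone and gate and symbols the replicate number. The libraries numbered 2 of clone 4 are lowest in Dppa2 and Dppa4, and the GFP-negative libraries numbered 1 are lowest in Rif1.

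The partners of the regulators gave few calls. Within pairs, edgeR called 4.22% of all genes in clone 10, 0.119% in clone 4 and 3.36% over both. Of the 13 partners of TRIM28 and of the methyltransferases of histone H3 lysine 9, edgeR called 1 within pairs, Zfp809, a KRAB zinc finger protein known to direct TRIM28 to retroviral DNA. Zfp809 was higher, by 1.88 on the log2 scale (SE 0.26, adjusted p = 0.00695) in clone 10 and 1.26 (SE 0.18, adjusted p = 0.00990) over both clones, and by 0.63 (SE 0.26, adjusted p = 0.653) in clone 4. Over all libraries its change over both clones was 1.32 (SE 0.33, edgeR adjusted p = 0.155) and was not called. Within pairs the call was lost in clone 10 without its replicate 3 pair (1.76, edgeR adjusted p = 0.0645) and over both clones without the replicate 1 pair of clone 4 (1.14, edgeR adjusted p = 0.0693). Atf7ip, which stabilises SETDB1, Ehmt1, the partner of EHMT2, and Morc3 had 0.34, 0.12 and 0.18 within pairs over both clones, with none called, and the median of the 13 was 0.071. Within pairs, 0 of 9 genes of the LSD1-CoREST complex, 0 of 10 of PRC1.6 and 0 of 5 of the histone chaperones were called in either clone or over both, with medians over both clones of 0.062, -0.0079 and -0.072 beside 0.0031 for all genes.

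Among the 16 genes of a list of other repressors, edgeR within pairs called Lin28a lower in clone 10 (-1.04, SE 0.17, adjusted p = 0.0143), with a change of -0.0021 in clone 4. The difference of Lin28a between the clones was not called within pairs (-1.04, SE 0.24, edgeR adjusted p = 0.528). Within pairs, edgeR called Myc lower over both clones (-0.46, SE 0.10, adjusted p = 0.0443). Lin28a encodes an RNA-binding protein and Myc a transcription factor of growing cells. Neither was called over all libraries. Lin28a was not called without the replicate 3 pair of clone 10 (-1.11, edgeR adjusted p = 0.0816) or in a fit of the libraries of clone 10 alone (-1.06, edgeR adjusted p = 0.0815), and Myc lost its call in 5 of 9 alternatives within pairs, with edgeR adjusted p of 0.0941 to 0.177 in those 5. The median of the 16 was -0.060 over both clones within pairs. The shares of all genes called by edgeR within pairs were 4.22% in clone 10 and 3.36% over both clones.

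Of 11 other activators in the table, 9 were tested. All 9 had a positive change over both clones within pairs, with a median of 0.33, beside 0.0031 for all genes tested. For Obox2 and Obox3 the count filter fixed that direction, as set out below. Called higher by edgeR within pairs over both clones, against 3.36% of all genes, were Zscan4c (3.62, SE 0.25, adjusted p = 0.000868), Nelfa (1.32, SE 0.21, adjusted p = 0.0142) and Obox3 (adjusted p = 0.0222). Zscan4c is also among the two-cell-like genes above, and Nelfa encodes a subunit of the negative elongation factor. The call of Nelfa was lost without the replicate 1 pair of clone 4 (1.18, edgeR adjusted p = 0.0870). Obox2 and Obox3, homeobox genes of the early embryo, rest on few reads. Both passed the count filter only through the GFP-positive cells of clone 10. Their higher level there was thus fixed by the filter, and their calls are no separate evidence of a rise. Obox3 had 134, 22 and 61 counts in GFP-positive replicates 1 to 3 of clone 10, against 2, 1 and 2 counts in GFP-negative replicates. In clone 4 it had 7, 0 and 0 counts in GFP-positive replicates, against 0 in each GFP-negative replicate, so no fold is given over both clones, and without the replicate 1 pair of clone 4 it was not called there (edgeR adjusted p = 1). Obox2 had 57, 20 and 24 counts in GFP-positive replicates of clone 10, against 1, 1 and 2 counts in GFP-negative replicates, and was called in clone 10 (adjusted p = 0.0175) and not over both clones (adjusted p = 0.0674). In clone 10 the call was lost without its replicate 2 pair (edgeR adjusted p = 0.0624) and without its replicate 3 pair (edgeR adjusted p = 0.117). Smarca5, Dppa3, Nfya, Tbx3 and Obox6 were not called in any of these comparisons. Dux, Duxf3 and Obox4 were also on the list of other activators. They are absent from the count table under these symbols, so they were not analysed here.

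**Figure D5:**
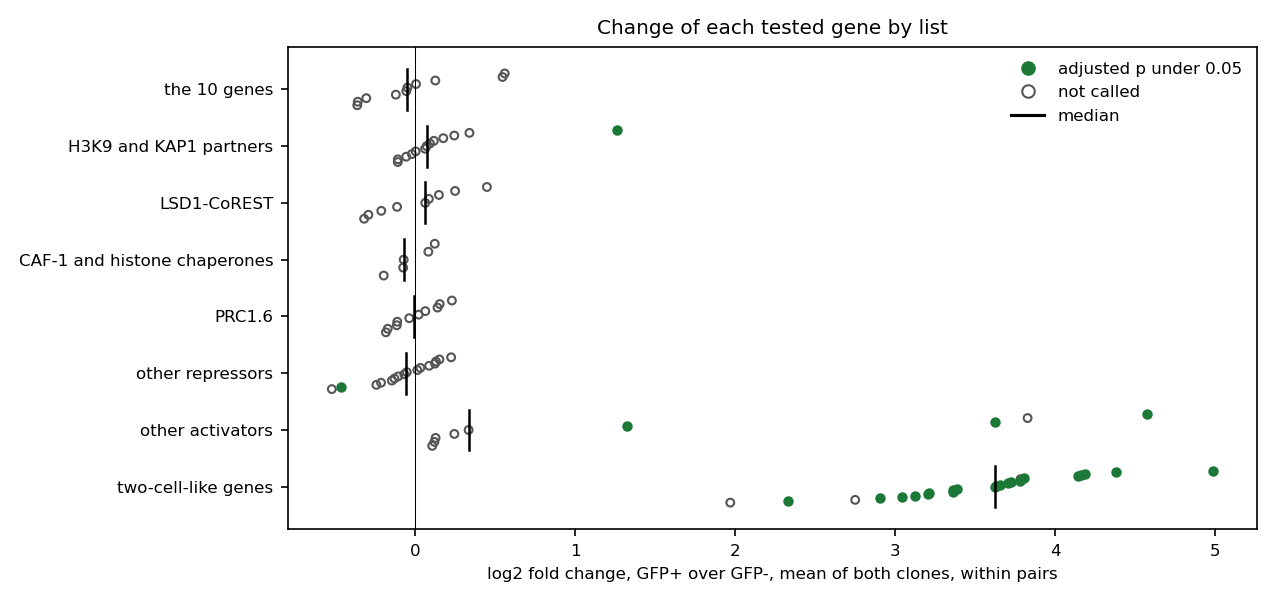
Log2 fold change of GFP-positive over GFP-negative cells, mean of both clones within pairs (horizontal axis), for each tested gene of the 10 regulators, of 6 lists of partners and other regulators, and of the two-cell-like genes. Filled points have an edgeR adjusted p under 0.05 over all genes tested and vertical lines are medians. The 10 regulators span -0.36 to 0.56, and the 24 two-cell-like genes lie at 1.97 or higher. The points of Obox2, Obox3 and Tdpoz4, which had 0 counts in GFP-negative cells of clone 4, depend on the prior count of the fit.

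Some fibroblast markers differed with the gate within pairs. Over both clones, edgeR called 6 of 17 fibroblast markers lower in GFP-positive cells, against 3.36% of all genes, with a median of -0.84. Leaving out single pairs moved this count over 5 to 12, with 12 without the replicate 1 pair of clone 10. Within pairs it called 1 lower in clone 10, against 4.22% of all genes, and 3 in clone 4, against 0.119%. Leave-outs moved these counts over 0 to 9 and 0 to 12. Over all libraries edgeR called 0 of 17 in either clone or over both. Their summed level was 1049 to 2017 CPM in GFP-positive and 605 to 3116 CPM in GFP-negative cells of clone 10, and 1005 to 1621 CPM in GFP-positive and 1133 to 2549 CPM in GFP-negative cells of clone 4. The 18 genes of the list were all detected. Within pairs, edgeR called Sox17 higher (1.59, adjusted p = 0.0413) and Lama1 lower (-0.87, adjusted p = 0.0163) of 8 primitive endoderm markers in clone 10, Krt8 higher (0.76, adjusted p = 0.0439) of 7 trophoblast markers, and Olig2 lower (-1.19, adjusted p = 0.0315) of 4 neural markers. These calls in clone 10 stand beside 4.22% of all genes. In clone 4 edgeR called 0 of these 3 lists, against 0.119%. Of the 10 markers of embryonic stem cells, edgeR called 0 in either fit. At an unadjusted p under 0.05 within pairs over both clones stood 5 of these 10 markers, beside 26.3% of all genes, with a median of -0.26. Their sum was 6600 to 7267 CPM in GFP-positive and 7678 to 11061 CPM in GFP-negative cells of clone 10, and 5398 to 7270.5 CPM in GFP-positive and 5565 to 9647 CPM in GFP-negative cells of clone 4. In all 6 pairs, mitochondrial genes took a larger share of the GFP-positive library. The part of these in the values of the 10 genes was not tested.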

How the data were processed

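Gene expression was measured by RNA sequencing of total RNA in 12 libraries, 3 in each of 4 groups, with 12968916 to 34258395 counts a library. The authors deposited whole-number read counts per gene, not normalized. Their table for each clone adds, per the file headers, p-values, a log2 change and its error, their quotient as a score, and a signal per library made by dividing counts by a size factor. Of these deposited columns only the counts, symbols and coordinates are used. Reads were processed with STAR 2.3.0e, HTSeq 0.6.0 and DESeq2 on mm10, per the submitters' processing notes, while no source used here gives the annotation release or strand setting.

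CPM was computed from the counts, with 0.01 added before the log2 for the SD of unscaled values, and exon lengths were taken from GENCODE M21. Counts were tested with edgeR 4.0.16 in R 4.3.3 (quasi-likelihood F test with robust fitting and TMM factors; filterByExpr, minimum count 10), leaving 15179 of 22753 genes, in a single fit of all 12 libraries with a term per group. Alternatives were DESeq2 1.42.0, limma-voom 3.58.1, DESeq2's size factors, no filter, each library left out, and the pair of clone and replicate number as a replicate block. The replicate numbers pair the libraries by the data: deviations from group means correlated at 0.548 to 0.822 in the 6 same-numbered pairs. Between numbers they correlated at -0.541 to -0.228. Deviations cancel out within a group, so positive values in same-numbered pairs make those between numbers negative on the whole. The negative values are thus no separate evidence. Nothing in the labels says what a number marks. The scripts were tested on simulated data.

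The members and lists were chosen with earlier results of these data known. All 10 members are named, with up to 4 genes of smallest p of each other list. Genes named outside this rule, among them Myc and the activators that were not called, were chosen after their values were seen. Correlations are descriptions without p.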

Additional observations from a re-analysis of the deposited data

How the results depend on the processing

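The count of the 10 genes called stayed at 0 in clone 10, clone 4, the mean of both clones and the comparisons between clones under other size factors, no filter, DESeq2, limma-voom and each library left out, and, except for clone 10 against clone 4 within a gate, where it was not run, under the replicate block. Within pairs it moved to 3 with DESeq2 in clone 10 and over both clones and to 1 with limma-voom in clone 10, and it ranged from 0 to 1 in clone 10 and over both clones when a pair was left out. The replicate block moved the calls over all genes to 641 in clone 10 against 0 without it, to 18 in clone 4 against 0 and to 510 over both clones against 24. Over all libraries, DESeq2 called 289, 33 and 286 genes in these comparisons, limma-voom 44, 0 and 1, and no filter gave 6, 0 and 67. Leaving out single libraries gave 0 to 100 calls in clone 10, 0 in clone 4 and 0 to 101 over both clones, and leaving out single pairs within pairs gave 132 to 657, 0 to 207 and 125 to 980. Between the clones, edgeR's 168 calls in GFP-positive and 7 in GFP-negative cells moved over 0 to 287 and 0 to 19. The alternatives for genes of the lists, and the overlap and pair counts with the scaling factors, were chosen after seeing the data. The cause of these differences was not tested.

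Of the changes tallied under the alternatives, 887 kept their direction and side of the threshold, 9 newly passed it and 46 turned their sign. The tally holds all 10 genes in clone 10, clone 4 and the mean of both clones. For the difference between clones, the tally and the ranges below hold Dppa2, Chaf1b and Ehmt2 alone. For clone 10 against clone 4 they hold Trim28 and Dppa2 alone. As 0 of the 10 genes were called in the fits as reported, no call could be lost. The replicate block changed the call of none of the 10 genes. The change of Setdb1 over both clones, at -0.0056, became 0.0022 without a filter, 0.0046 with limma-voom and 0.0049 with the replicate block. Leaving out single libraries turned the sign in these ranges over all libraries. In clone 4 they were -0.56 to 0.13 for Trim28, -0.16 to 0.27 for Setdb1, -0.22 to 0.016 for Chaf1b, -0.30 to 0.0013 for Ehmt2, -0.27 to 0.13 for Pcgf6, -0.12 to 0.76 for Dppa2 and -0.47 to 0.30 for Dppa4. In clone 10 they were -0.19 to 0.16 for Setdb1, -0.22 to 0.064 for Chaf1a, -0.48 to 0.072 for Pcgf6 and -0.33 to 0.35 for Dppa4. Over both clones they were -0.10 to 0.11 for Setdb1, -0.014 to 0.30 for Chaf1a, -0.25 to 0.028 for Pcgf6 and -0.29 to 0.098 for Dppa4, and for the difference between clones -0.13 to 0.75 for Dppa2. Leaving out single pairs within pairs gave -0.027 to 0.11 for Setdb1, -0.0055 to 0.061 for Kdm1a, -0.19 to 0.11 for Pcgf6 and -0.22 to 0.026 for Dppa4 in clone 4, -0.11 to 0.015 for Setdb1 and -0.17 to 0.24 for Dppa4 in clone 10 and -0.033 to 0.036 for Setdb1 and -0.13 to 0.074 for Dppa4 over both clones. Chaf1b, Ehmt2, Rif1 and Dppa2 kept their sign in clone 10 and over both clones. Each of the 10 genes had at least 487 counts in every library.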
